A study of Mus musculus with 24 samples.

Results

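Genes for the mitochondrial respiratory chain and ATP synthase were followed through a time course of mouse optic vesicle (OV) organoids, with the genes of the nuclear and of the mitochondrial genome kept apart. Members were chosen by gene symbol alone: the Nduf genes of complex I, the 4 Sdh genes of complex II, the Uqcr genes of complex III, the Cox4 to Cox8 genes of complex IV, the Atp5 genes of complex V and the mt-Nd, mt-Cytb, mt-Co and mt-Atp genes. Symbols ending in -ps and entries on patch sequences were left out. Of 49705 entries in the table, 102 were members, 89 in the nuclear and 13 in the mitochondrial genome. The nuclear members comprised 40 genes of complex I, 4 of complex II, 8 of complex III, 19 of complex IV and 18 of complex V, and the mitochondrial members 7, 0, 1, 3 and 2. The grouping follows the symbol, so complex I includes Ndufa4, whose protein belongs to complex IV, and its relative Ndufa4l2.

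The respiratory chain passes electrons from NADH and succinate to oxygen and pumps protons across the inner mitochondrial membrane, and complex V (ATP synthase) uses the returning protons to make ATP. Most subunits are encoded in the nucleus and imported, whereas a few hydrophobic core subunits are transcribed from the circular mitochondrial DNA as long precursors that are cut into separate mRNAs. Pluripotent stem cells rely heavily on glycolysis, and the use of respiration changes as they differentiate. Several nuclear subunits have isoforms that are used in particular tissues or oxygen levels.

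All libraries came from the same mouse ES cell line (Rx-GFP K/I EB5), in which GFP was knocked into the Rax locus, so that every group carried this allele and GFP marked cells with an active Rax gene. Day 0 was the day of plating at 4500 cells per well, and Matrigel was added on day 1 to 2%. Each sample was live single cells sorted from 24 pooled organoids. Days 4 and 5 were further split by GFP into a positive and a negative gate, which with days 0, 1, 2 and 3 gave 8 groups of 3 libraries. The negative gate also took in some cells with a low GFP signal, so values given as without GFP are those of this gate. The 3 libraries of a group were biological triplicates of cultures of 1 line, so p-values describe the spread between cultures and not between lines. Values were normalized counts, which are kallisto's estimated counts divided by a DESeq2 factor, and library totals lay between 39849100 and 51587500. Mean normalized counts of Pou5f1, a pluripotency factor, went from 36698 on day 0 to 76.7 in day 5 GFP-positive cells. Those of Rax were 975 and 9559 in the GFP-negative and GFP-positive cells of day 4, and the mesendoderm gene T was at 1925 and 145 in these gates. In sorted bulk cells, fewer cells of a type and less RNA per cell cannot be told apart.

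Day 0 replicate 1 stood apart from the other libraries in the short genes, and most members are short. Over 10051 genes with at least 100 normalized counts in each library, its median log2 ratio to the other 2 day 0 libraries was 0.97 for transcripts of up to 500 bases and -0.51 for those over 4000 bases. The span between these length classes, 1.47, compares with 0.64 for the next highest library, day 4 GFP-negative replicate 3. The lowest spans, -0.88 and -0.76, were those of day 0 replicates 2 and 3, whose ratios have replicate 1 in the denominator. Of the 90 members in that set, the 10 with the shortest transcripts had a median log2 ratio of 1.19, and the 7 above 2000 and up to 4000 bases one of 0.10. Cox7c, a small subunit of complex IV, was at 22298 in day 0 replicate 1 and at 7772 and 7193 in the other 2 libraries. Atp5a1, the long mRNA of the ATP synthase alpha subunit, was at 61774 there and at 60954 and 55014 in the others. Counts of members called are therefore given with all libraries and, for the comparisons they touch, without day 0 replicate 1, beside the share of all genes called in that fit. What set this library apart was not tested.

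**Figure D1:**
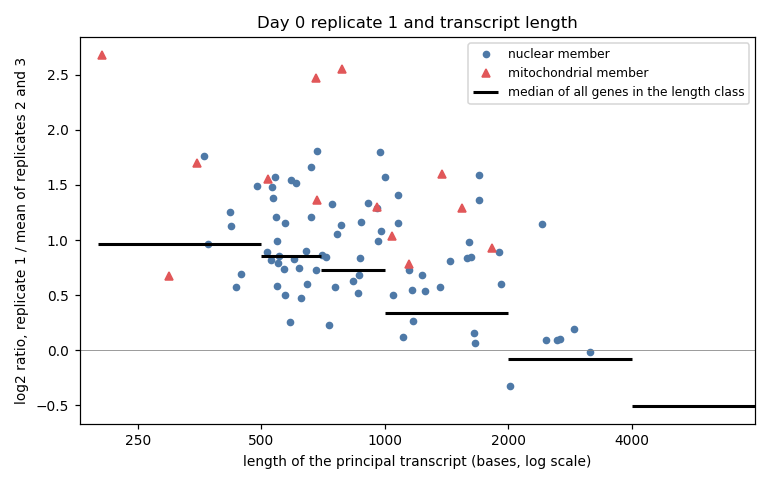
The log2 ratio of day 0 replicate 1 to the mean of day 0 replicates 2 and 3 (vertical axis) for 90 members against the length of their principal transcript in bases (log scale), with the median of all genes in each length class as bars. The class medians go from 0.97 for the shortest to -0.51 for the longest transcripts, the last bar being open-ended above 4000 bases, and most members lie above 0.

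Together the 89 nuclear members took 1.28% ± 0.32 (SD, n = 3) of all normalized counts on day 0. The next 3 days had 1.13% ± 0.030, 1.07% ± 0.054 and 0.98% ± 0.079. Later they took 0.85% ± 0.076 in GFP-negative and 0.79% ± 0.059 in GFP-positive cells of day 4, and 0.79% ± 0.051 and 0.83% ± 0.036 in those of day 5. Day 0 replicate 1, at 1.65%, was far above the 1.09% and 1.10% of the other 2 day 0 libraries. Even so, each of the 9 libraries of days 0 to 2 was above each of the 12 libraries of days 4 and 5, the closest values being 1.04% on day 2 and 0.94% in day 4 GFP-negative cells. These are levels, with no test over the sum. Complex V made up most of the difference in level: its nuclear genes took 0.54% ± 0.0085 on day 1 and 0.33% ± 0.019 among the last GFP-positive libraries. The 4 genes of complex II, succinate dehydrogenase, took 0.052% ± 0.00070 on day 1 and 0.051% ± 0.0013 at the end.

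The 13 mitochondrial members took more of each library and varied more within groups. Their share was 5.96%, 2.34% and 2.23% in the day 0 libraries, 4.30%, 2.59% and 3.20% on day 1 and 2.10%, 2.34% and 2.62% on day 2. On day 3 it was 1.69%, 5.82% and 4.39%, which spans nearly the whole range of the series within 1 group. The GFP-negative and GFP-positive libraries of day 4 held 3.73%, 3.66% and 2.74% and 2.57%, 2.58% and 2.91%, and those of day 5 held 1.69%, 3.37% and 2.73% and 1.93%, 2.85% and 3.56%. The range of day 3 overlapped with that of every other group.

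**Figure D2:**
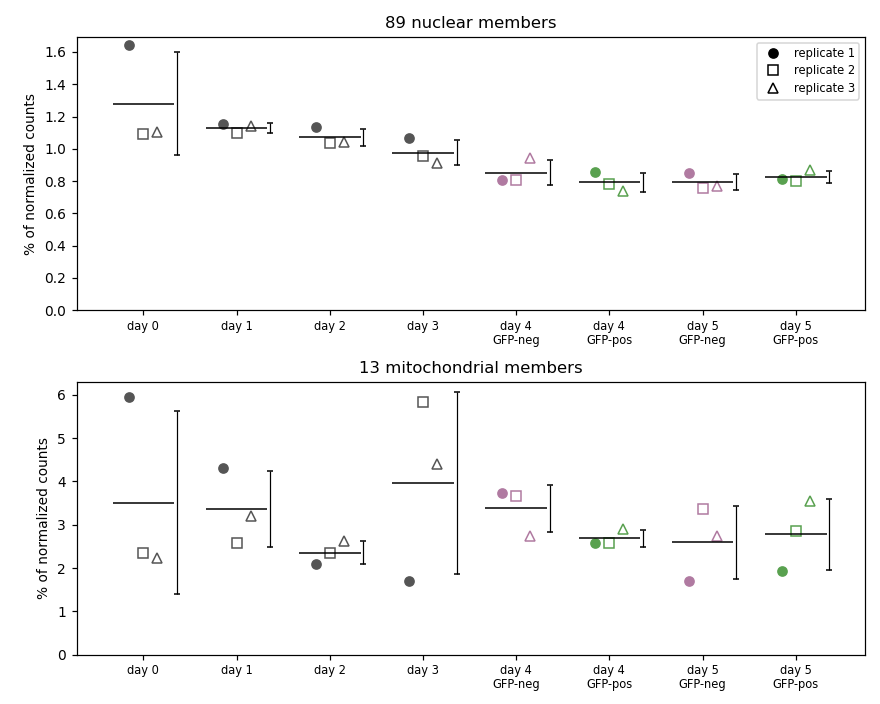
Percent of all normalized counts held by the nuclear (upper panel) and mitochondrial members (lower panel) in each of 24 libraries, by group, with the mean as a line and the SD as a bar (n = 3). The nuclear share is 1.04% or higher in every library of days 0 to 2 and at most 0.94% on days 4 and 5, whereas the mitochondrial share of day 3 runs from 1.69% to 5.82%.

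Differences were tested with limma on log2(normalized count + 1) over the 21005 genes that reached 10 normalized counts in 3 or more libraries, and a gene was called at a Benjamini-Hochberg adjusted p under 0.05. Of the nuclear members, 83 passed this filter, and all 13 mitochondrial ones did. The 6 that did not pass were Cox6a2 and Cox8b, the isoforms of heart and skeletal muscle, the copies Ndufa11b, Ndufs6b and Cox6c2, which are annotated as processed pseudogenes, and a second Atp5o entry. Cox8b had at most 1.13 normalized counts in any library. Cox6a2 reached 16.6 and 16.1 in day 0 replicates 2 and 3 and was listed at 0 in all libraries of day 4 GFP-positive and of day 5 cells. Ndufb4c, also annotated as a processed pseudogene, passed with 968 to 3943 normalized counts, which could include reads of its parent Ndufb4 and are uncertain. The fit estimates each gene's spread over all groups together, so day 0 replicate 1 also bears on comparisons without day 0. Leaving it out does not move their log2 differences but changes their adjusted p-values. In day 4 GFP-positive cells against day 3, Atp5b differed by -0.79 (log2) in both fits. Its adjusted p in limma was 0.0002 with all libraries and 3.4e-06 without day 0 replicate 1.

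Between day 0 and the positive gate of day 5, 49 nuclear members fell and 2 rose. Over all genes 32.1% were called lower and 29.3% higher in that comparison, against 49 of 83 and 2 of 83 members. The median log2 difference was -0.58 over the nuclear members and -0.06 over all genes. Without day 0 replicate 1, 36 members were lower, all of them among the 49, 5 were higher, and the nuclear median was -0.30, beside 34% of all genes lower and 30.8% higher in that fit. By complex and with all libraries, the fitted members called lower were 21 of 38 in complex I, 2 of 4 in complex II, 4 of 8 in complex III, 11 of 16 in complex IV and 11 of 17 in complex V. They were 13, 1, 3, 10 and 9 without day 0 replicate 1, and the count of complex I was then close to the share over all genes. Among the 13 members that were no longer called without this library were Cox7b, Atp5j2, Ndufb4, Ndufb6 and Uqcr11.

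**Figure D3:**
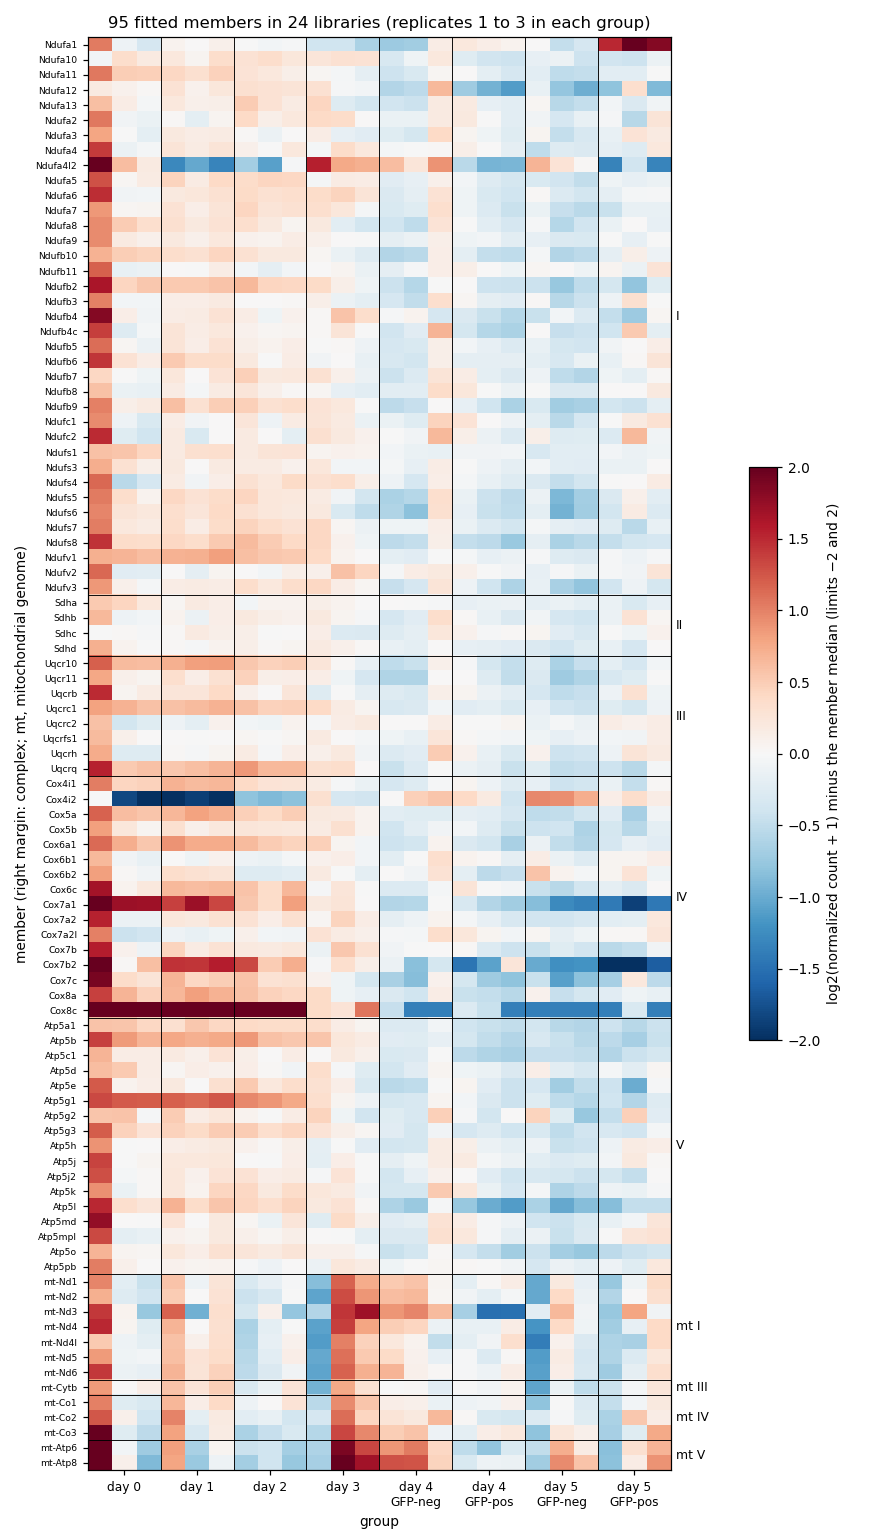
Fitted members (95 rows, ordered by genome and complex) in 24 libraries (columns, replicates 1 to 3 of each group), as log2(normalized count + 1) minus the member's median over libraries, drawn between -2 and 2. Most nuclear rows are red in day 0 replicate 1 and pale blue on days 4 and 5, while most mitochondrial rows are red in day 3 replicates 2 and 3 and blue in day 3 replicate 1.

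Both subunits of the catalytic core of ATP synthase were called lower on day 4 than on day 3 in either gate, beside 20.9% of all genes in the positive and 9.01% in the negative gate. In GFP-negative cells both calls were lost without day 3 replicate 1 (adjusted p = 0.092 for Atp5b and 0.069 for Atp5a1 in limma) or without GFP-negative replicate 2 of day 4 (0.0502 and 0.0567), and that of Atp5a1 also under quantile normalization (0.11). Atp5b encodes the catalytic beta subunit and was the most abundant nuclear member per kilobase. It was at 146232, 102324 and 90688 normalized counts on day 0, at 96842, 92806 and 96682 on day 1 and at 103657, 85495 and 82625 on day 2. It was at 83630, 66582 and 64056 on day 3, at 48630, 48364 and 50569 in GFP-negative and at 44547, 40628 and 37887 in GFP-positive cells of day 4. Day 5 libraries held 45780, 41801 and 38786 without and 39687, 36025 and 41606 with GFP, so no library of day 4 or 5 reached any library of days 0 to 3. Between day 0 and the GFP-positive cells of day 5 it fell by 1.50 ± 0.15 (log2, SE), or 2.84-fold, with an adjusted p of 1.55e-08 in limma, and by 1.30 without day 0 replicate 1. The alpha subunit Atp5a1 went from 59247 ± 3690 (SD, n = 3) to 29878 ± 1580 and fell by 0.99 ± 0.10 (log2, SE; adjusted p = 3.92e-08 in limma).

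The membrane ring of ATP synthase is built from the c subunit, which the genes Atp5g1, Atp5g2 and Atp5g3 encode as the same mature protein behind different import signals. Atp5g1 was at 10723, 10047 and 9894 on day 0, at 8347, 7897 and 7256 on day 2 and at 5420, 4471 and 4012 on day 3. It was at 3253, 2868 and 3597 in day 5 GFP-positive cells, below each library of the first 4 days. The fall of 1.66 ± 0.13 (log2, SE; adjusted p = 5.49e-10 in limma) was 1.63 without day 0 replicate 1. Atp5g3 fell by 0.89 ± 0.16 (log2, SE; adjusted p = 6.75e-05 in limma) and Atp5g2 differed by -0.44, with a 95% interval from -1.04 to 0.16. Without day 0 replicate 1, Atp5g3 fell by 0.61 and Atp5g2 differed by -0.35. Atp5g1 made up 41.8%, 42.4% and 42.0% of the summed normalized counts of the 3 genes on day 1, compared with 29.2%, 26.3% and 27.3% for GFP-positive day 5 cells. On day 0 its share was 42.4% and 45.6% in replicates 2 and 3 and 32.3% in replicate 1, where Atp5g3 was at 21453. Of the other complex V members that fell, Atp5l, a membrane subunit, did so by 1.29 and Atp5c1, the central stalk gamma subunit, by 0.78 (log2). Without day 0 replicate 1 they fell by 0.89 and 0.60.

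Several subunits of complex IV, cytochrome c oxidase, have isoform genes, and differences between partners were not tested. Cox7a1, the isoform of contractile tissue, was at 922, 393 and 388 on day 0, at 310, 393 and 303 on day 1 and at 173, 153 and 210 on day 2. From there it was at 136, 143 and 120 on day 3, at 95.4, 78.9 and 72.8 in day 4 GFP-positive and at 44.0, 31.8 and 43.5 in day 5 GFP-positive cells. The 9 libraries of days 1 to 3 did not overlap with either gate of days 4 and 5. The fall between day 0 and the last GFP-positive libraries was 12.9-fold (log2 -3.69 ± 0.27, SE; adjusted p = 1.24e-10 in limma), and log2 -3.28 without day 0 replicate 1. Its ubiquitous partner Cox7a2 was between 3596 and 13644 in all libraries and differed by -0.49 over the same span (log2; 95% interval -1.06 to 0.08). This difference was 0.06 without day 0 replicate 1, which held the highest Cox7a2 value. Cox7a1 went from 6.33%, 8.35% and 8.26% of their summed normalized counts on day 0 to between 0.77% and 1.07% in day 5 GFP-positive cells.

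Cox4i2, the isoform of the regulatory subunit that is known from lung and from low oxygen, went the other way. It was at 101, 27.8 and 16.9 on day 0, at 18.4, 26.9 and 16.4 on day 1 and at 57.3, 54.3 and 57.2 on day 2. Day 3 libraries held 127, 80.4 and 77.6, and day 5 libraries 198, 194 and 168 without and 111, 130 and 112 with GFP. The rise from day 1 to day 2 was 1.44 ± 0.41 and that between day 0 and the GFP-positive gate of day 5 was 1.66 ± 0.41 (log2, SE; adjusted p = 0.017 and 0.0013 in limma). The second was 2.38 without day 0 replicate 1, in which Cox4i2 was at several times its level in the other 2 libraries. The main isoform Cox4i1 fell by 0.83 ± 0.15 (log2, SE; adjusted p = 5.01e-05 in limma), and by 0.64 without day 0 replicate 1. Cox4i2 stayed at or under 2.24% of the summed normalized counts of both genes in every library.

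Cox8c and Cox7b2, isoforms known mostly from testis, were low on day 0 and nearly absent at the end. Cox8c was at 27.5, 26.5 and 19.6 on day 0, at 13.8, 14.8 and 12.3 on day 2, at 2.39, 2.12 and 4.47 on day 3 and at most 1.16 in any library of days 4 and 5. It was called lower on day 3 against day 2 (log2 -1.92), in both gates of day 4 against day 3, where all values were under 5 normalized counts, and in day 5 GFP-positive cells against day 0 (log2 -4.30; adjusted p = 1.34e-08 in limma), where the size depends on the pseudocount because most late libraries list it at 0. Cox7b2 was at 40.4, 5.09 and 8.08 on day 0 and at 0, 0 and 0.91 in day 5 GFP-positive cells (log2 -3.41; adjusted p = 1.76e-05 in limma). This difference was -2.58 without day 0 replicate 1, and its size depends on the pseudocount too. Their counterparts were far higher: Cox8a lay between 4121 and 15571 and Cox7b between 4086 and 17472. Cox8a fell by 0.99 and Cox7b by 0.87 with all libraries, and by 0.72 and 0.35 without day 0 replicate 1 (log2). The call of Cox7b was lost then, at an adjusted p of 0.061 in limma. Among the other isoform pairs, Cox6a1, the form of most tissues, fell by 1.04 ± 0.17 (log2, SE; adjusted p = 1.33e-05 in limma), and by 0.875 without day 0 replicate 1. Cox6b1 and its testis form Cox6b2 differed by -0.07 (95% interval -0.40 to 0.27) and -0.17 (-0.57 to 0.22) and were not called, and without day 0 replicate 1 they differed by 0.18 and 0.11.

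**Figure D4:**
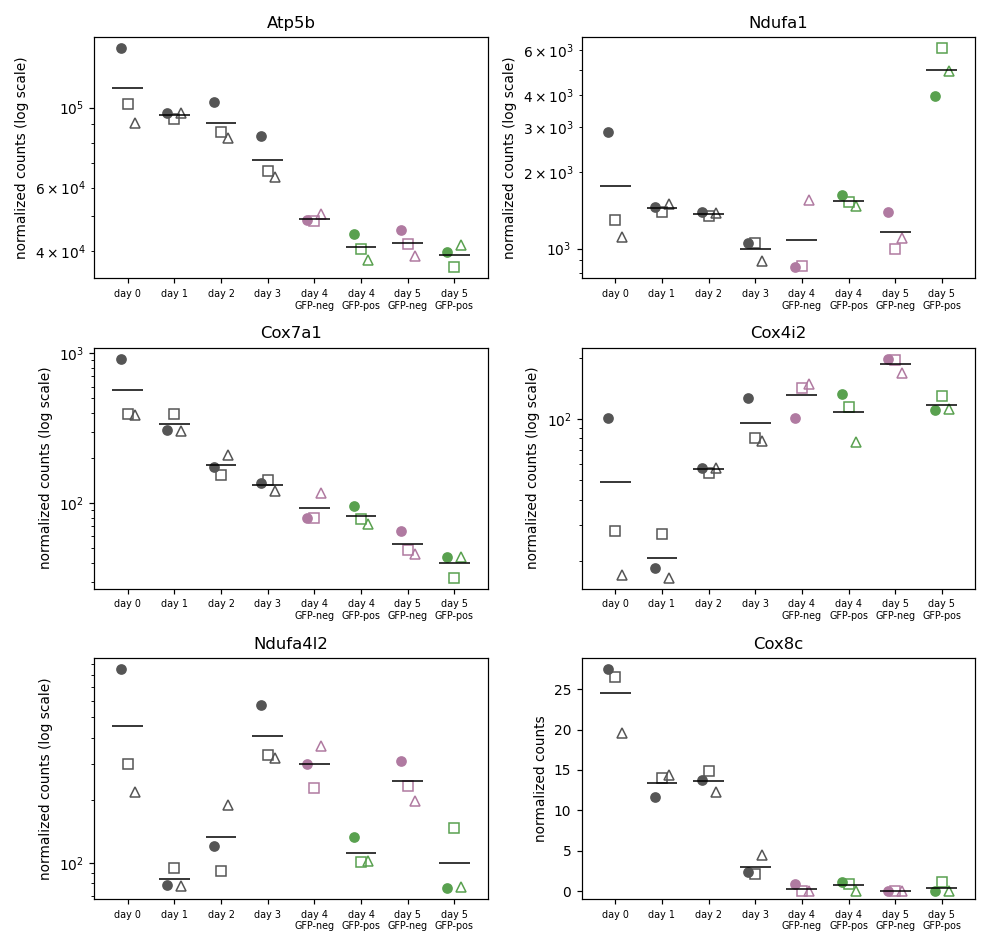
Normalized counts of 6 nuclear members in each library, by group (filled circles, replicate 1; squares, replicate 2; triangles, replicate 3), with the group mean as a line and a log scale for all but Cox8c. Atp5b, Cox7a1 and Cox8c descend through the course, Cox4i2 climbs from day 1, Ndufa4l2 is lower with GFP than without on days 4 and 5, and Ndufa1 is at 3971 or more only in day 5 GFP-positive cells.

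In complex II, 2 of 4 members fell between day 0 and the GFP-positive cells of day 5. Sdha, the flavoprotein of succinate dehydrogenase, went from 12112 ± 1260 (SD, n = 3) to 8036 ± 499 and fell by 0.59 ± 0.085 (log2, SE; adjusted p = 3.61e-06 in limma). The membrane anchor Sdhc was at 4194, 4309 and 4173 on day 0 and at 4223, 3980 and 4487 in day 5 GFP-positive cells, and the 95% interval of its log2 difference ran from -0.27 to 0.27. Sdhb, the iron-sulphur subunit, differed by -0.09 (95% interval -0.47 to 0.28; 0.15 without day 0 replicate 1). The other anchor Sdhd fell by 0.42. Without day 0 replicate 1 its fall was 0.19 and the call was lost (adjusted p = 0.073 in limma). In complex III the core protein Uqcrc1 fell by 0.93 ± 0.11 (log2, SE; adjusted p = 1.17e-07 in limma), whereas its partner Uqcrc2 was at 10480, 5412 and 5912 on day 0 and at 7769, 7429 and 7770 at the end. Uqcrc2 was not called with all libraries (adjusted p = 0.46 in limma) and was called higher without day 0 replicate 1. Among the core subunits of complex I that carry electrons from NADH, Ndufv1, Ndufs1 and Ndufs8 fell by 0.72, 0.61 and 1.11 with all libraries and by 0.70, 0.58 and 0.75 without day 0 replicate 1 (log2). Ndufv2 differed by -0.18 (log2; 95% interval -0.67 to 0.30) and by 0.27 without that library, and was called in neither fit.

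Against the day before, few nuclear members moved until day 4. From day 0 to day 1, 3 were lower (Ndufa4l2, Sdha and Ndufs1) and 0 higher, beside 4.79% and 5.23% of all genes, and at an unadjusted limma p under 0.05 the counts were 6 and 0. Leaving out single libraries kept the call of Sdha in 6 of 24 fits and that of Ndufs1 in 10, and 6 other settings kept them in 3 and 1, with adjusted p up to 0.17 and 0.19 in limma. Without day 0 replicate 1, 2 were lower and 2 higher (Cox6c and Ndufs4), beside 7.43% and 6.57% of all genes, and the nuclear median log2 difference turned from -0.16 to 0.15. From day 1 to day 2, Cox4i2 rose and Cox7a1 fell by 0.90 ± 0.27 (log2, SE; adjusted p = 0.023 in limma), beside 9.03% of all genes higher and 7.54% lower, and 3 members were lower without day 0 replicate 1, when 11.2% of all genes were. The calls of Cox4i2 and Cox7a1 were each kept in 21 of 24 fits with a library left out. From day 2 to day 3, Cox8c, Atp5g1 and Ndufv1 fell and Ndufa4l2 rose, beside 6.99% lower and 7.46% higher over all genes. With a library left out, the call of Ndufv1 was kept in 21 of 24 fits and that of Ndufa4l2 in 23. Without day 0 replicate 1, 12 nuclear members were lower and 3 higher in that step, beside 12.2% of all genes in each direction. Without day 3 replicate 1, 8 were lower, beside 7.45% of all genes.

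From day 3 to the GFP-positive cells of day 4 more nuclear members were called with all libraries than in the other steps, as were more of all genes. In GFP-positive cells of day 4 against day 3, 21 of 83 nuclear members were lower and 0 higher, beside 20.9% and 17.1% of all genes, and 1 was higher at an unadjusted limma p under 0.05. They were 7 of the 38 fitted members of complex I, 1 of 8 of complex III, 6 of 16 of complex IV and 7 of 17 of complex V. The largest falls of members above the floor of 10 normalized counts were those of Ndufa4l2, at 1.81 ± 0.39, and of Atp5l, at 1.13 ± 0.24 (log2, SE; adjusted p = 0.00079 and 0.00062 in limma). Cox8c, below that floor in both groups, had an adjusted p of 0.021 that became 0.053 with a pseudocount of 5 and 0.42 under quantile normalization in limma. Atp5b, Atp5c1 and Atp5a1 fell by 0.79, 0.69 and 0.63, and Ndufa12 and Ndufs8 of complex I by 1.00 and 0.72 (log2). The count was 37 without day 0 replicate 1, a library of neither group, when 25% of all genes were lower. It was 10 without day 3 replicate 1, when 18.8% were. It was 13 without day 4 GFP-positive replicate 2 and 10 without replicate 3 of that group, beside 18.5% and 18% of all genes. In GFP-negative cells of day 4 against day 3, 5 were lower (Cox8c, Atp5b, Uqcrc1, Atp5a1 and Ndufv1) and 0 higher, beside 9.01% and 9.49% of all genes, with 18 and 0 at an unadjusted limma p under 0.05. The call of Ndufv1 was kept in 10 of 24 fits with a library left out and in 2 of 6 other settings (adjusted p up to 0.26 in limma). That count was 22 without day 0 replicate 1 and 14 without day 4 GFP-negative replicate 3, beside 13.4% and 7.45% of all genes. It was 2 without replicate 2 of that gate or without day 3 replicate 1, beside 6.81% and 7.02%. Both comparisons share the day 3 libraries.

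Between the gates of day 4, Ndufa4l2 and Atp5c1 were lower in GFP-positive cells and 0 nuclear members higher, beside 11.3% and 4.43% of all genes; at an unadjusted limma p under 0.05 the counts were 7 and 1. The call of Atp5c1 was kept in 20 of 24 fits with a library left out. Between the gates of day 5, Ndufa4l2 was lower and Ndufa1 higher in GFP-positive cells, beside 12.3% and 3.78% of all genes. Without day 0 replicate 1, 4 members were lower and Ndufa1 was higher in GFP-positive cells of day 4, and 10 were higher in those of day 5. In that fit 14.3% of all genes were lower and 8.12% higher on day 4, and 7.79% were higher on day 5. Besides Ndufa1 these were Atp5h, Atp5j, Atp5mpl, Cox6c, Ndufb5, Ndufc1, Ndufs4, Uqcrb and Uqcrc2, with log2 differences of 0.23 to 0.52. Over all 83 nuclear members the median log2 difference between the gates was -0.05 on day 4 and 0.17 on day 5. The second was 0.076 with per-total scaling, 0.079 with scaling without mitochondrial genes and 0.098 with quantile normalization, when the median of all genes was -0.091, -0.089 and 0.080. Without day 4 GFP-negative replicate 3, 0 members were lower on day 4 and the median was 0.08, and the count lower on that day was also 0 without GFP-positive replicate 2 or 3. In these 3 fits 10%, 9.58% and 9.15% of all genes were lower. From day 4 to day 5, Ndufa1 rose and Cox7a1 fell in GFP-positive cells, beside 4.57% higher and 5.24% lower over all genes, the call of Cox7a1 being kept in 22 of 24 fits with a library left out. In GFP-negative cells 0 nuclear members were called by limma in either direction, with 4 lower and 0 higher at an unadjusted p under 0.05, beside 4.45% lower and 5.72% higher over all genes, and 6 were lower without day 0 replicate 1, beside 8.37% of all genes.

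Ndufa4l2, a relative of the complex IV subunit Ndufa4 that is known as a target of hypoxia signalling, changed direction several times. It was at 852, 298 and 219 normalized counts on day 0, at 78.8, 94.7 and 77.5 on day 1, at 121, 91.4 and 191 on day 2 and at 572, 330 and 318 on day 3. The GFP-negative and GFP-positive libraries were at 299, 230 and 364 and at 133, 102 and 102 on day 4, and at 310, 236 and 198 and at 76.0, 148 and 76.9 on day 5, so the gates did not overlap on either day. Ndufa4l2 fell by 2.18 ± 0.39 from day 0 to day 1, rose by 1.60 ± 0.39 from day 2 to day 3 and was lower in GFP-positive cells by 1.38 on day 4 and 1.34 on day 5, each ± 0.39 (log2, SE; adjusted p = 0.0008, 0.0079, 0.016 and 0.019 in limma). Each gate difference lost its call in 3 of 24 fits with a library left out and under quantile normalization. The adjusted p in limma then reached 0.073 on day 4, without GFP-negative replicate 3, and 0.11 on day 5, under quantile normalization. The fall after day 0 was 1.60 without day 0 replicate 1 and was called then as well (adjusted p = 0.002 in limma). Ndufa4 itself differed by -0.49 between day 0 and GFP-positive day 5 cells (log2; 95% interval -1.01 to 0.03), a difference of 0.00 without day 0 replicate 1, and was not called in any of the comparisons with all libraries.

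Ndufa1, a small membrane subunit of complex I encoded on the X chromosome (ENSMUSG00000016427; X, 37187588 to 37191163, minus strand, mm10), was high in GFP-positive cells of day 5. Its normalized counts there were 3971, 6099 and 4956, compared with 1396, 997 and 1098 in GFP-negative cells of the same day and 1616, 1528 and 1466 in GFP-positive cells of day 4. The highest value in any other group was 2864, in day 0 replicate 1, and days 1, 2 and 3 lay between 893 and 1489. On day 5 its level with GFP was 4.28-fold that without (log2 2.10 ± 0.26, SE; adjusted p = 3.80e-06 in limma), and 3.21-fold higher than in GFP-positive cells of day 4 (log2 1.68 ± 0.26, SE; adjusted p = 0.00015 in limma). On day 4 the difference between the gates was 0.56 (log2; 95% interval 0.02 to 1.11; adjusted p = 0.17 in limma). Tested directly, the gate difference was larger on day 5 than on day 4 by 1.53 ± 0.37 (log2, SE; adjusted p = 0.044 in limma), a comparison in which 0.528% of all genes were called higher and 0.571% lower and 0 other nuclear members were called (4 higher and 0 lower at an unadjusted p under 0.05). That adjusted p was under 0.05 in 4 of 6 other settings and, with any single library removed, in 7 of 24 fits. The difference was 1.24 without day 4 GFP-negative replicate 3, the highest library of its group. After Ndufa1, the nuclear member with the next largest positive log2 difference from day 4 to day 5 in GFP-positive cells was Ndufb4c, at 0.49 (adjusted p = 0.44 in limma).

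The neighbour of Ndufa1, chosen here after its values were seen, had a like pattern. Rnf113a1 (ENSMUSG00000036537; X, 37191245 to 37192467, plus strand), which encodes a ring finger protein, begins 81 bases from Ndufa1 and is transcribed away from it. In GFP-positive cells its level was above that of GFP-negative cells by 1.37 on day 4 and 2.16 on day 5 (log2; adjusted p = 1.05e-06 and 1.65e-09 in limma), and by 1.24 on day 5 against day 4 in GFP-positive cells. Of 23 other genes fitted within 500000 bases of Ndufa1, 3 were called higher and 0 lower between the gates of day 5, beside 3.78% and 12.3% of all genes, and they were Rnf113a1, Upf3b (log2 0.80) and Nkap (log2 0.57). The 752 fitted genes of the X chromosome had a median log2 difference of -0.03 in that comparison.

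Per kilobase of transcript, 6 mitochondrial mRNAs (mt-Co1, mt-Co2, mt-Co3, mt-Atp6, mt-Nd1 and mt-Cytb) were above every nuclear member in each of the 24 libraries. The other 7 were so in 6 (mt-Nd3) to 22 (mt-Nd2) libraries. The level of mt-Co1, the catalytic subunit of complex IV, was 295560 normalized counts per kilobase as a mean over all libraries, and that of Atp5b, the highest nuclear member, was 35359. On the same scale mt-Nd5, mt-Nd6 and mt-Nd3 were at 32771, 31933 and 18422. mt-Nd6 lies on the opposite strand and shares 14 bases with mt-Nd5, and since strand use in counting is not given, its values may hold reads from RNA of the other strand. On day 3 mt-Nd1 was at 64972, 266579 and 197043 and mt-Cytb at 64274, 209604 and 152646. Replicate 1 was the lowest of the day 3 libraries for each of the 13 genes.

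Only mt-Nd3, a membrane subunit of complex I, was called by limma among the mitochondrial members, and only in GFP-positive cells of day 4. Its values there were 3153, 1756 and 1768, compared with 9267, 9858 and 7790 in GFP-negative cells of that day and 3347, 13493 and 16141 on day 3. The gates of day 4 did not overlap, and the difference was -2.06 ± 0.58 (log2, SE; adjusted p = 0.018 in limma); against day 3 it was -2.07 ± 0.58 (adjusted p = 0.0074 in limma). The first call was lost when any of 4 libraries of day 4 was left out, namely GFP-negative replicate 1 or 2 or GFP-positive replicate 2 or 3, and the second without day 3 replicate 3. On day 5 mt-Nd3 was at 4315, 7833 and 4782 without and 2955, 8644 and 4744 with GFP. In the 9 other comparisons limma called 0 mitochondrial members. At an unadjusted p under 0.05 it gave 2 higher on day 3 against day 2, 1 with a larger gate difference on day 5 and 0 in the others, and 2 lower in each of the comparisons that called mt-Nd3.

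The calls in the step from day 2 to day 3 depended on which libraries were used. All 13 mitochondrial members had a positive log2 difference, with a median of 0.63 beside -0.02 over all genes. Without day 3 replicate 1 the median was 1.24 and 7 members were called higher (mt-Nd2, mt-Nd3, mt-Nd4, mt-Nd5, mt-Nd6, mt-Atp6 and mt-Atp8), beside 7.89% of all genes. In that fit 5 were lower in GFP-positive cells of day 4 against day 3, beside 18.8% of all genes. With day 0 replicate 1 left out, mt-Atp6 and mt-Atp8 were called higher in the step from day 2 to day 3, beside 12.2% of all genes. That library is in neither group of this step, so the log2 differences were the same in both fits. From day 0 to day 5 GFP-positive cells the mitochondrial median was -0.40 with all libraries and 0.17 without day 0 replicate 1, so no direction can be given.

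Relative to each other the mitochondrial mRNAs were not constant. mt-Atp8, mt-Atp6 and mt-Co3 lie next to each other (MT, 7766 to 7969, 7927 to 8607 and 8607 to 9390, plus strand, mm10), encode 2 subunits of ATP synthase and 1 of cytochrome c oxidase, and come from a shared stretch of precursor RNA. The first pair share 43 bases, and reads from this stretch belong to either gene. It is shown here because counts of mt-Atp8 and mt-Atp6 cannot be fully separated (RefSeq and GENCODE reference build GRCm38, chrM:7927-7969, plus strand, with the start codon of mt-Atp6 in capitals).
mt-Atp8/mt-Atp6 overlap: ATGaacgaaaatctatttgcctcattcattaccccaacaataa

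The 3 genes made up 32.9% of the normalized counts of the 13 members in day 0 replicate 1 and 18.0% and 14.9% in the other day 0 libraries. They made up 15.3%, 15.02% and 13.03% on day 2 and 19.4%, 24.5% and 24.9% on day 3. On day 4 they made up 23.0%, 24.7% and 19.6% in GFP-negative and 16.1%, 17.8% and 18.0% in GFP-positive cells, which did not overlap. On day 5 the gates overlapped, at 19.99%, 22.6% and 23.0% and at 16.4%, 18.2% and 23.8%. These shares are a description with no test, and mt-Atp6 itself was not called between the gates of day 4 (log2 -1.31; adjusted p = 0.18 in limma). The mitochondrial ribosomal RNAs mt-Rnr1 and mt-Rnr2, which are not members, were together at 0.036% to 0.17% of normalized counts in these polyA libraries.

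**Figure D5:**
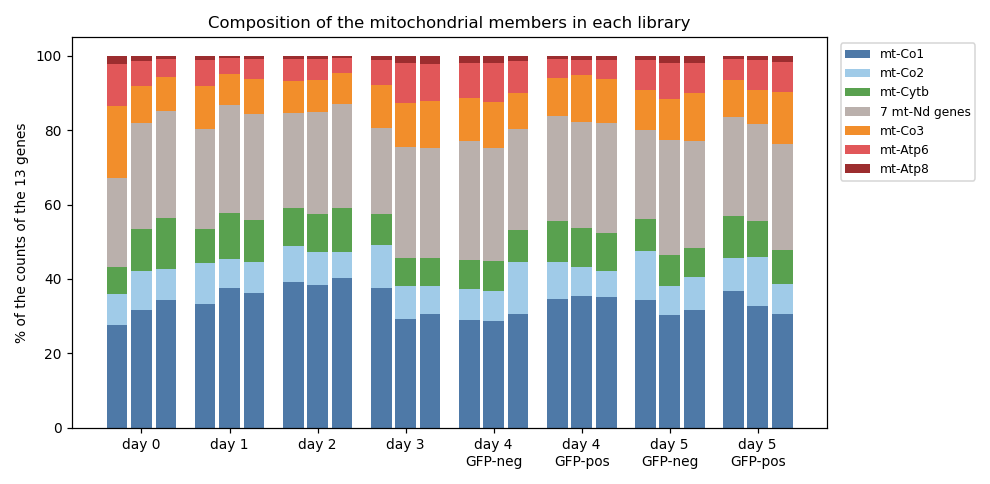
Percent of the summed normalized counts of the 13 mitochondrial members held by each gene or gene group, as stacked bars for the 3 libraries of each group. mt-Co3, mt-Atp6 and mt-Atp8 (orange to dark red, top of each bar) take 32.9% in day 0 replicate 1, between 13.03% and 24.9% in the other libraries, and 16.1% to 18.0% in GFP-positive cells of day 4, where GFP-negative cells hold 19.6% to 24.7%.

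Sequence before the gene start was compared for the nuclear members that could be matched by symbol to the RefSeq promoter windows of build GRCm38.p6, which were 68 of 89. The palindrome bound by NRF1, a regulator of respiratory chain genes, which is the letters GCGCA followed by their reverse complement, was found in the 250 bases before the start of 4 members (5.9%; Atp5g2, Atp5k, Cox6a1 and Ndufa11) and of 0.88% of all 27025 genes with a window. The letters CCGGAAG, bound by ETS factors such as GABPA, were found on either strand in 12 members (17.6%) and 7.83% of all genes, Cox6a1 holding both. Of the 12 members with the ETS letters 7 were called lower in day 5 GFP-positive cells against day 0, of the 4 with the NRF1 letters 2, and of the 67 fitted members with a window 40. The share of all genes called lower in that comparison was 32.1%. These counts were 4, 2 and 27 without day 0 replicate 1, beside 34% of all genes, and 4 of 12 is close to that share. The stretches of 3 of these windows outside annotated exons are printed to show a member with the NRF1 letters (capitals) beside Atp5b and Cox7a1, whose stretches hold neither motif. They are chr17:56717686-56717761, chr10:128083057-128083272 and chr7:30183921-30184143, all on the plus strand, and the NRF1 letters of Ndufa11 begin 60 bases before its start.
Ndufa11: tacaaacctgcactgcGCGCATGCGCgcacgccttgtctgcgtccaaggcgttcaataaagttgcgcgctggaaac
Atp5b: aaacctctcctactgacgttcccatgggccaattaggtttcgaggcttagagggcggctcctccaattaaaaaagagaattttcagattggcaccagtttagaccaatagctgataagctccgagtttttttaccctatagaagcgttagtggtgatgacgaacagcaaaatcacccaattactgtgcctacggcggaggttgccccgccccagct
Cox7a1: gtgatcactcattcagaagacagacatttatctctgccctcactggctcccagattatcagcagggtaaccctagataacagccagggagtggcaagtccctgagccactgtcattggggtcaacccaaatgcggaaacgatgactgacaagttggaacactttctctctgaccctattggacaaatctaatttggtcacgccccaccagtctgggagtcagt

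Ndufa11, a membrane subunit of complex I, fell by 0.82 ± 0.15 between day 0 and the GFP-positive gate of day 5 (log2, SE; adjusted p = 5.33e-05 in limma). The fall was 0.62 without day 0 replicate 1. The letters were searched as written, so the absence of a match says only that these letters are not in the window.

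Genes that serve the chain were counted in the same comparison. Of 44 fitted assembly factors, 15 were lower and 3 higher in day 5 GFP-positive cells against day 0, of 78 mitochondrial ribosomal protein genes 45 and 1, and of 27 genes for mitochondrial DNA and RNA 11 and 2, beside 32.1% of all genes lower and 29.3% higher. Of 13 citrate cycle genes 7 were lower and 0 higher, and of 11 genes for cytochrome c, cytochrome c1 and ubiquinone synthesis 5 and 2. The median log2 differences were -0.03, -0.37, -0.35, -0.29 and -0.30 in that order, beside -0.58 for the nuclear members and -0.06 for all genes. They were 0.03, -0.27, -0.15, -0.17 and -0.28 without day 0 replicate 1, beside -0.30 for the nuclear members. In the same fit the counts were 10 lower and 15 higher of the assembly factors, 39 and 2 of the ribosomal protein genes and 10 and 2 of those for mitochondrial DNA and RNA. They were then 6 and 2 of the citrate cycle genes and 5 and 2 of the cytochrome c and ubiquinone genes, beside 34% and 30.8% of all genes. Among the genes for mitochondrial DNA and RNA, the polymerase Polg fell by 1.04 and the RNA polymerase Polrmt by 0.91 (log2; adjusted p = 2.61e-09 and 9.86e-07 in limma), whereas Tfam, which packages mitochondrial DNA, differed by 0.10 (adjusted p = 0.51 in limma).

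Of 10 regulators, 6 were lower and 2 higher in the same comparison (7 and 2 without day 0 replicate 1), beside the same 32.1% and 29.3% of all genes. Nrf1 fell by 0.73, Gabpa by 0.70 and Esrra by 0.80, and Esrrb, which is also a pluripotency factor, fell by 8.09 (log2; adjusted p = 4.21e-05, 0.0016, 0.00045 and 5.33e-15 in limma). Gabpb1 rose by 0.63 (adjusted p = 1.45e-06 in limma), and Ppargc1a, a coactivator of mitochondrial biogenesis, rose by 3.00 from a mean of 1.87 to one of 21.1 normalized counts (adjusted p = 6.96e-05 in limma). In day 4 GFP-positive cells against day 3, 20 of the 78 mitochondrial ribosomal protein genes were lower and 2 higher, and 10 and 4 of the 44 assembly factors, beside 20.9% and 17.1% of all genes.

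The study's thresholds, a log2 difference beyond 1.5 in either direction with an adjusted p below 0.001, were set here on limma's values for each comparison alone. The study set them on shrunken DESeq2 differences, and its eye-field gene sets had to pass several comparisons together. With limma, 7 nuclear members passed in day 5 GFP-positive cells against day 0. These were Cox8c, Cox7a1, Cox7b2, Ndufa4l2, Atp5g1 and Atp5b, which fell, and Ndufa1, which rose, beside 14.9% of all genes lower and 11.2% higher under the same thresholds. Those that passed without day 0 replicate 1 were Cox8c, Cox7a1, Cox7b2 and Atp5g1, which fell, and Ndufa1 and Cox4i2, which rose. Ndufa4l2 also passed on day 1 against day 0 and in the positive gate of day 4 against day 3, beside 0.395% and 7.36% of all genes lower, and without day 0 replicate 1 it passed in the second of these and, as a rise, on day 3 against day 2, but not in the first. Ndufa1 passed in GFP-positive cells of day 5 against the GFP-negative cells of that day and against day 4, beside 0.4% and 0.595% of all genes higher.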

How the data were processed

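RNA was measured in 24 libraries of polyA RNA, 3 for each of 8 groups (TruSeq kit; whether counting used strand is not given in the sources used here). The values are a signal that the authors deposited as 1 table of normalized counts: estimated counts from kallisto 0.43.1 on mm10 transcripts, summed per gene and divided by DESeq2's library factors. Whole reads could not be recovered from it, since 45.7% to 76.4% of low values per library lay within 0.1 of whole multiples, and the depth estimated from them was 37.0 to 54.7 M reads. The table's 9 columns with the authors' own calls were not used, and 0 columns of unmapped samples were found.

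Groups came from the sample titles. Values were put on the log2 scale after a pseudocount of 1, genes with 10 or more in 3 or more libraries were kept (21005), and limma 3.58.1 in R 4.3.3 fitted the 8 group means to all 24 libraries with 16 residual degrees of freedom and a trended prior. Adjusted p-values are Benjamini-Hochberg values over all genes of a comparison, tests are two-sided, and fold changes of low genes are understated by the pseudocount. In simulated data with 21005 genes, values were drawn around each gene's mean over all groups with its residual SD. Log2 differences of 0.5 and 1 were planted in 100 genes each in day 4 GFP-positive cells against day 3. Of these, 27% and 72% were recovered. Far fewer genes differed there than in the real comparison, where 20.9% were called lower and 17.1% higher. The adjusted p depends on how many genes differ, so these shares cannot be read as those of the real tests.

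Members and gene lists were chosen with earlier results of these data known. The genes to be named were the 13 mitochondrial members, the isoform groups of complex IV, Ndufa4 and the c subunit, the Sdh genes, and for each comparison the 3 called nuclear members with the largest rise and fall. Other members named were chosen after their values were seen. One member is not reported here by itself. Transcript lengths came from GENCODE and promoter windows from RefSeq (GRCm38.p6). Alternatives were a pseudocount of 5, no filter, scaling by total with and without mitochondrial genes, quantile normalization, the replicate number as a block and leaving out each library. Python 3.11.15 with pandas 2.3.3, numpy 2.4.6 and scipy 1.17.1 made the tables, and matplotlib 3.10.9 the figures.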

Additional observations from a re-analysis of the deposited data

Results flagged for a closer look

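The difference in Ndufa1 between GFP-positive and GFP-negative cells was called larger on day 5 than on day 4 with all libraries. Tested directly with limma, it exceeded that of day 4 by 1.53 on the log2 scale (SE 0.37, Benjamini-Hochberg adjusted p = 0.044). All 3 GFP-positive libraries of day 5 were above all other libraries. The adjusted p ran from 0.032 to 0.062 over 6 other settings, where 4 kept the call, and from 0.0014 to 0.12 over the 24 fits with 1 library removed, where 7 kept it and the others lost it. The settings that lost the call were no filter and the replicate block.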

How the results depend on the processing

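The count of nuclear members lower in day 5 GFP-positive cells against day 0 was 49 with all libraries and 44 or more under each other scaling, although per-total scaling, scaling without mitochondrial genes and quantile normalization moved the median of all genes there by 0.14, 0.13 and 0.15 (log2), and the nuclear median was then -0.43, -0.44 and -0.50. Among nuclear members, the count lower on day 1 against day 0 went from 3 to 1 with no filter, quantile normalization or the replicate block. On day 2 against day 1 it went from 1 to 2 with a pseudocount of 5, per-total scaling, scaling without mitochondrial genes or the replicate block. Per-total scaling and scaling without mitochondrial genes gave 1 higher in place of 0 in day 4 GFP-positive cells against day 3. Quantile normalization gave 3 lower in place of 5 in day 4 GFP-negative cells against day 3, 1 in place of 2 between the gates of day 4 (also 1 with no filter), 0 in place of 1 between the gates of day 5 and 1 in place of 0 in day 5 against day 4 GFP-negative cells. With no filter or the replicate block, 0 members in place of 1 had a larger gate difference on day 5. The cause of these shifts was not tested. The labels do not say whether same-numbered gates of a day came from the same organoids. The replicate numbers were not treated as pairs, since not every pair correlated above 0.1: deviations from group means of same-numbered libraries had a mean correlation of -0.001 over 84 pairs (-0.28 to 0.40) and, for the 6 pairs of gates of a day, correlations of -0.11 to 0.15. Besides the counts named here, the block changed no other count by over 1.5 times.

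Leaving out 1 library gave these ranges for nuclear members: 0 to 2 higher and 1 to 6 lower on day 1 against day 0, 0 to 1 and 0 to 3 on day 2 against day 1, 0 to 3 and 2 to 12 on day 3 against day 2, 0 to 1 and 10 to 37 for the positive gate of day 4 against day 3, and 2 to 22 lower in day 4 GFP-negative cells against day 3. They were 0 to 1 higher and 0 to 4 lower between the gates of day 4 and 1 to 10 and 0 to 1 between those of day 5. From day 4 to day 5 they were 1 to 2 and 0 to 2 in GFP-positive cells, and 0 to 6 lower in GFP-negative cells. For the positive gate of day 5 against day 0 they were 2 to 5 higher and 36 to 58 lower, and for the larger gate difference 0 to 1 higher. For mitochondrial members they were 0 to 7 higher on day 3 against day 2, 0 to 5 lower for the positive gate of day 4 against day 3, and 0 to 1 lower between the gates of day 4. Of 54 named gene and comparison pairs that were called, 41 were called under all 6 other settings, 30 under every setting, and 0 changed direction.

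Over all genes, the share of calls that were higher moved from 51.6% to 64.2% (day 3 against day 2) and from 56.2% to 72.2% (GFP-negative cells of day 5 against day 4) under another scaling. It moved from 51.3% to 61.9% in day 4 GFP-negative cells against day 3, from 28.2% to 38.7% between the gates of day 4, from 23.6% to between 13.7% and 35.2% between those of day 5 and from 48.1% to 32.9% for the larger gate difference. With 3 libraries a group, 27% of log2 differences of 0.5 were recovered in the simulated comparison, and smaller ones were not planted. Some members were called at less than 0.5, such as Atp5a1 in day 4 GFP-negative cells against day 3 with all libraries (log2 -0.38).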
